A study of Mus musculus with 9 samples.

Results

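CD4+ T cells lacking CD40 ligand were compared with wild-type CD4+ T cells under the same control stimulation, in 6 of the 9 bulk RNA-seq libraries of the series. The libraries were taken by their labels, 3 named KO isotype and 3 named WT isotype. The KO cells came from mice whose CD40L deficiency is specific to T cells (genotype label "cre") and the WT cells from wild-type mice (genotype label "wt"). All mice were C57BL/6. Splenic naive CD4+ T cells, purified by flow cytometric sorting, were grown on plates coated with 1 µg/ml anti-CD3e, which stimulates the T cell receptor, and 19 µg/ml isotype control antibody. The remaining 3 libraries, wild-type cells on anti-CD40L in place of the isotype antibody, entered the filter on low counts and the shared estimate of spread. Their levels are given beside a few genes and lists. The sources used here give neither the Cre driver, the deleted exons and the age of the mice nor the length of culture. Whether libraries of 1 group stem from different animals is not stated in the labels, so each p-value reflects only how far these libraries scatter, and that scatter may be technical.

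CD40L is a member of the TNF superfamily that activated CD4+ T cells display on their surface. It binds CD40 on B cells, dendritic cells and macrophages, and through CD40 it drives B cell growth and antibody class switching. In the T cell itself, triggering of CD3 first induces the NR4A, EGR and AP-1 transcription factors and then MYC, under which cells build ribosomes and raise glycolysis, while genes of the resting state such as Klf2, Tcf7 and Ccr7 are turned down. The series title places CD40L in CD4+ T cell activation and polarization and names RACK1, an adaptor for protein kinase C, as its partner.

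No gene differed between KO and WT at an adjusted p under 0.05 (edgeR quasi-likelihood test, Benjamini-Hochberg over 11256 genes, 0.0% called), and the smallest adjusted p was 0.109. Unadjusted p-values under 0.05 were found for 649 genes (5.77%), of which 278 stood higher and 371 lower in KO. On the same genes DESeq2 called 39, limma-voom 0 and limma-voom with sample quality weights 32. Fitted on the 6 isotype libraries alone, with 11086 genes tested, edgeR called 3: Tnfsf14 higher in KO, and Fcer2a and Adam19 lower (adjusted p = 0.0229 each). The values below are therefore given as positions of the 6 libraries, and no gene or list is described as changed. A gene is said to stand apart when all 3 KO libraries lay above, or all 3 below, the 3 WT libraries in CPM, the counts scaled to a common library size with TMM correction.

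The shifts were small and balanced. The median log2 fold change of KO over WT was 0.002, with quartiles at -0.115 and 0.118, and 5697 genes (50.6%) lay above 0. At least 1.5-fold higher in KO were 298 genes (2.65%), and at least 1.5-fold lower 214 (1.9%). At least 2-fold shifts were found for 56 genes upward and 52 downward. All KO libraries lay above all WT libraries for 857 genes (7.61%) and below them for 858 (7.62%), and these 2 shares are the background for every count of members that stand apart. Over those 1715 genes the median size of the difference was 0.24 on the log2 scale, and 59 of them reached 2-fold.

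**Figure D1:**
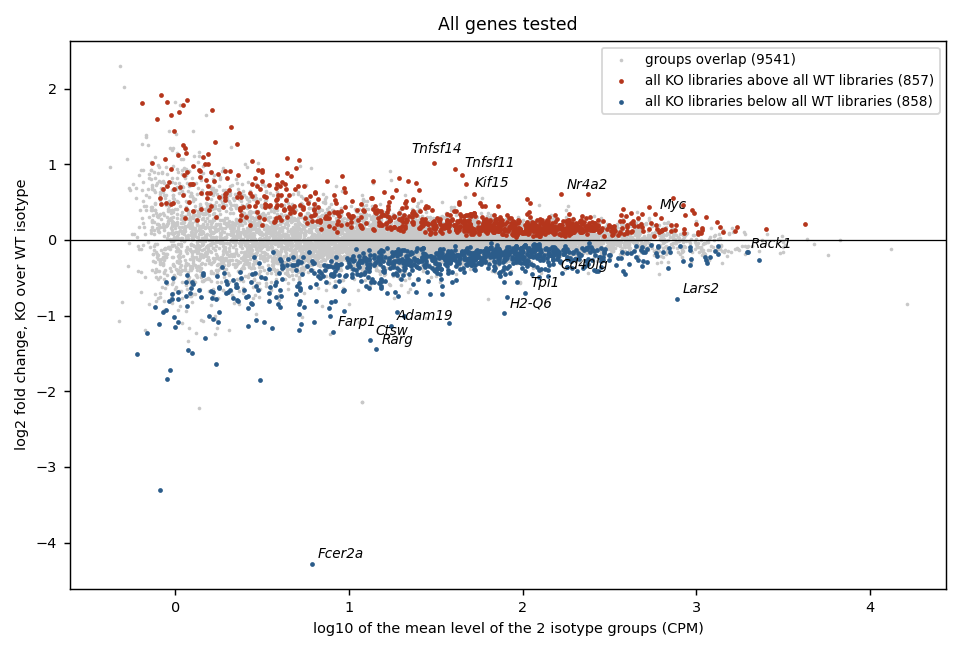
Log2 fold change of KO over WT isotype (y axis) against the log10 of the mean level in CPM (x axis) for the 11256 genes tested; red points are the 857 genes whose KO libraries all lay above the WT libraries, blue points the 858 whose KO libraries all lay below, and grey points the 9541 that overlapped. The cloud is centred on 0 and narrows with level, and Fcer2a is the point lowest on the plot.

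The width of the intervals bears on what a missing call can mean. For 64.4% of genes the 95% interval of the fold change lay within 1.5-fold in either direction, and for 82.3% within 2-fold. Among the 4431 genes between 20 and 100 CPM the median standard error was 0.126 and 99.2% had an interval inside 2-fold. Among the 1716 genes between 1 and 5 CPM the median standard error was 0.474 and only 19.2% had such an interval, so that 2-fold shifts of weakly expressed genes were mostly not detectable at this depth. Only 7 genes had an interval wholly beyond 1.5-fold, among them Tnfsf14 upward, and Fcer2a, Rarg, Adam19, Farp1 and the predicted gene Gm2004 downward. Naming this set followed from its values.

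Library totals ran from 9298654 to 15565711 counts in KO and from 8796453 to 11007159 in WT. The anti-CD40L libraries held 11226188, 9787896 and 5316482 counts. Their replicate 3 scored 52.78 on the leading principal component of all 9 libraries (47.6% of variance), where the others lay between -17 and 17.49. Single isotype libraries differed about as much within a group as between groups. Over 8236 genes at 10 CPM or more, the median absolute log2 difference of 2 libraries was 0.108 to 0.177 within KO, 0.104 to 0.130 within WT and 0.104 to 0.208 between them. Among the isotype libraries KO replicate 3 stood farthest out: it scored 25.36 on the leading principal component of the 6 libraries (35.1% of variance). The other isotype libraries lay between -11.66 and 6.10. The libraries also differed by transcript length. For transcripts under 1000 bases the median deviation from the WT mean, on log2(CPM + 1), was 0.03, -0.07 and -0.17 in KO and -0.02, 0.10 and -0.07 in WT. Above 8000 bases it was -0.03, 0.11 and 0.15 in KO and 0.06, -0.09 and 0.04 in WT. Among the shortest transcripts 4.74% of genes stood apart upward and 9.09% downward, and among the longest 10.8% and 3.96%. Of the genes tested, 90.8% had a length, and the part of length in any result below was not tested.

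**Figure D2:**
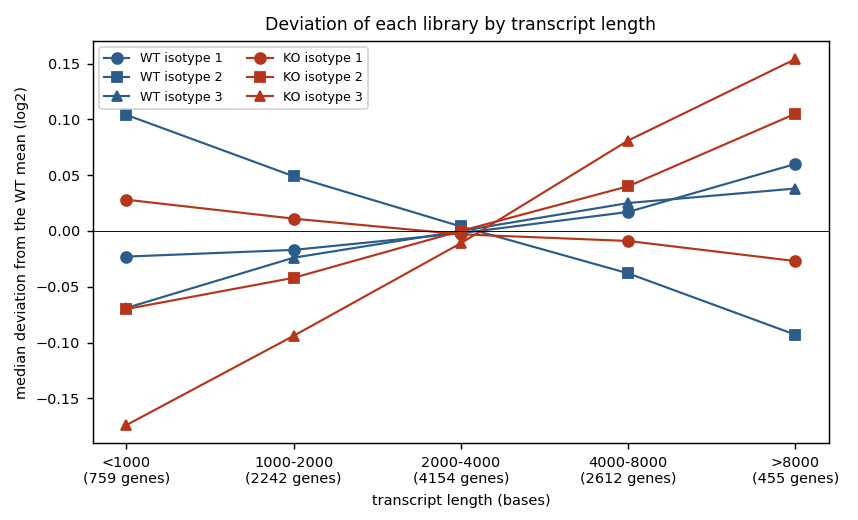
Median deviation of each isotype library from the WT mean (log2 of CPM + 1, y axis) in 5 classes of transcript length (x axis, with the number of genes), blue for WT and red for KO. KO replicate 3 goes from -0.17 in the shortest class to 0.15 in the longest, WT replicate 2 from 0.10 to -0.09, and the other 4 libraries lie between them at both ends.

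The targeted gene did not separate the groups. Cd40lg (chrX:57212143-57224042, mm10) was measured at 145, 136 and 150 CPM in KO and at 142, 154 and 189 CPM in WT. The highest KO library lay above the lowest WT library, and the log2 fold change was -0.17 (SE 0.13, 95% interval -0.45 to 0.12; edgeR quasi-likelihood adjusted p = 0.935). The table holds 1 value per transcript and none per exon, so a deletion that leaves the rest of the transcript in place could not be seen, and the libraries are called KO here by their label. No tested gene within 1 Mb of Cd40lg passed the test. The 2 that stood apart there were Htatsf1 (log2 fold change 0.09) and the predicted gene Gm14718 (0.56), both higher in KO.

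Among the partners of CD40L, 1 member of the list of CD40L receptors and adaptors stood apart upward and 1 downward, of 17 tested (median log2 fold change -0.07). Each share was 5.88%, below the 7.61% and 7.62% of all genes. Itgav, the integrin alpha V chain, was at 119, 105 and 129 CPM in KO and 97.9, 89.2 and 92.1 in WT (log2 fold change 0.34, SE 0.12). Traf5, an adaptor of CD40 and other TNF receptors, was at 18.1, 15.4 and 14.5 CPM in KO and 22.1, 21.8 and 21.9 in WT (-0.46, SE 0.15). Both groups overlapped for Traf1, Traf2, Traf3, Traf6, Itga5 and Itgb1, whose log2 fold changes lay between -0.12 and 0.14. Cd40, the receptor itself, was too low to be tested: 1, 4 and 0 counts in KO and 12, 18 and 4 in WT. Rack1 was at 2026, 1791 and 1540 CPM in KO and 1995, 2116 and 1957 in WT (-0.18, SE 0.10, edgeR quasi-likelihood adjusted p = 0.881). In the list of protein kinase C isoforms and Rack1 (11 tested), Prkcz, the atypical zeta isoform, was the most shifted: 7.69, 6.59 and 5.09 CPM in KO against 13.4, 11.4 and 12.3 in WT (-0.95, SE 0.22). Prkch, the eta isoform, also stood apart downward (-0.24), and Prkd3, a related kinase, upward (0.24). Of the 11 tested, 2 were thus apart downward (18.2%, against 7.62% of all genes) and 1 upward (9.09%, against 7.61%).

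The genes highest in KO relative to WT included 2 TNF family ligands. Tnfsf14 (LIGHT, a ligand of HVEM and the lymphotoxin beta receptor; chr17:57189474-57194181) was at 41.7, 41.7 and 39.6 CPM in KO and at 18.1, 23.2 and 19.7 in WT. The KO libraries lay close together and well above WT, and the fold was 2.02 (log2 fold change 1.01, SE 0.19, edgeR quasi-likelihood adjusted p = 0.195). Tnfsf11 (RANKL, the ligand of RANK) was at 56.3, 44.1 and 60.7 CPM in KO and 33.8, 21.6 and 28.3 in WT (0.94, SE 0.21). These were 2 of 11 TNF ligands tested (18.2%, against 7.61% of all genes). The other 9 tested TNF ligands overlapped between groups, among them Tnf (log2 fold change 0.11) and Tnfsf8, the CD30 ligand (0.02). Below stand the 250 bases before the RefSeq start of Tnfsf14 (GRCm38.p6), shown because it was the gene with the clearest higher level. Capitals mark an AP-1 motif, TGANTCA, that begins 160 bases before the start. It is a match of letters only, found in 4.41% of the promoters of 9006 tested genes with an entry and in 4.56% of those that stood apart upward.
Tnfsf14, chr17:57194182-57194431, strand minus: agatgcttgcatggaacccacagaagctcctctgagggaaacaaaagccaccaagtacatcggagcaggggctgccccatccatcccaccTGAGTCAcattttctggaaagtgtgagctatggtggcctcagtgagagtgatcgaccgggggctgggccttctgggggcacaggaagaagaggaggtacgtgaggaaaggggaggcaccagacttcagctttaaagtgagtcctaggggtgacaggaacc

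Early T cell receptor genes lay high in KO only in part. Of 19 tested immediate early and NR4A genes, 6 stood apart upward (31.6%, against 7.61% of all genes) and none downward, with a median log2 fold change of 0.08. By library the medians were 0.261, 0.098 and 0.135 in KO and -0.175, 0.145 and 0.078 in WT, so WT replicate 2 lay above KO replicates 2 and 3. Without WT replicate 1, whose members were lowest, the median log2 fold change was -0.01. Nr4a2, an orphan nuclear receptor induced by T cell receptor signals, was at 207, 180 and 215 CPM in KO and 115, 146 and 135 in WT (log2 fold change 0.61, SE 0.11, edgeR quasi-likelihood adjusted p = 0.195). Nr4a3 was at 620, 558 and 671 CPM in KO and 401, 455 and 508 in WT (0.44, SE 0.11). Nr4a1, the family member most used as a reporter of the receptor, overlapped: 1236, 1009 and 982 CPM in KO and 748, 1038 and 920 in WT. Egr1 and Egr2 overlapped as well, with log2 fold changes of 0.21 and 0.15. The AP-1 subunits Fosl2 (0.49, SE 0.13) and Fosl1 (0.35, SE 0.13) stood apart upward. Fos, Jun and Junb lay at -0.16, -0.04 and -0.05 with overlapping groups. Cd69, an early activation receptor, was at 394, 394 and 447 CPM in KO and 291, 369 and 323 in WT (0.33, SE 0.10).

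Several other regulators and effector genes stood apart upward. Irf8, a transcription factor of the interferon regulatory family, was at 72.2, 58.0 and 59.0 CPM in KO and 44.1, 39.8 and 39.6 in WT (log2 fold change 0.61, SE 0.12). Bcl2l1, the gene of the anti-apoptotic protein BCL-XL, was at 118, 132 and 128 CPM in KO and 95.4, 83.8 and 79.5 in WT (0.55, SE 0.12). Its relative Bcl2 lay slightly lower in all KO libraries, at 97.2, 88.1 and 97.5 CPM against 103, 105 and 97.7 (-0.11, SE 0.09). The chemokine Xcl1 was at 323, 255 and 283 CPM in KO and 156, 226 and 182 in WT (0.61, SE 0.17), and Ccl3 had a log2 fold change of 0.77 (SE 0.35). Il2, the T cell growth factor, reached only 6.72, 8.27 and 8.08 CPM in KO and 6.27, 3.99 and 4.70 in WT (0.63, SE 0.35). Its groups did not overlap, but the interval of a gene at this level is wide. Nfkb1, a subunit of NF-kB, showed a small shift with tight libraries: 1418, 1423 and 1412 CPM in KO and 1182, 1229 and 1208 in WT (0.23, SE 0.07). Tnip1, an inhibitor of NF-kB signalling, lay lower, at 125, 120 and 108 CPM in KO and 196, 156 and 136 in WT (-0.47, SE 0.12). Adjusted p-values of these 8 genes ran from 0.195 to 0.935 by the edgeR quasi-likelihood test.

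Others of the genes with the smallest p-values or largest shifts upward were of mixed function. Kif15, a mitotic kinesin, was at 60.4, 44.7 and 70.9 CPM in KO and 34.6, 32.8 and 37.9 in WT (log2 fold change 0.74, SE 0.15). Mbnl1, a regulator of alternative splicing, was at 766, 804 and 1031 CPM in KO and 655, 521 and 600 in WT (0.55, SE 0.13). Cst7 (cystatin F, an inhibitor of cathepsins) differed little between libraries of a group, at 51.1, 49.0 and 49.2 CPM in KO and 34.6, 37.4 and 35.3 in WT (0.47, SE 0.11). Nrp1 (neuropilin 1, found on thymus-derived regulatory T cells) was at 28.6, 27.5 and 34.4 CPM in KO and 14.7, 13.7 and 25.8 in WT (0.75, SE 0.23). Of 5 regulatory T cell markers tested, only Nrp1 stood apart, while 3 lay above 0 and 2 below. Their median of 0.08 turned to -0.13 without KO replicate 2. Foxp3 lay at -0.15 (SE 0.15) with overlapping groups. In a wider list of 10 regulatory T cell genes, 1 stood apart upward and 1 downward, with a median of -0.01. The chromatin enzymes Kmt2d and Kdm6b, a methylase and a demethylase of histone H3, lay at 0.41 (SE 0.14) and 0.34 (SE 0.12). Klrd1, Lgals7 and Sytl3 had log2 fold changes near 1 but lay under 10 CPM in every isotype library, with standard errors of 0.39 to 0.59.

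**Figure D3:**
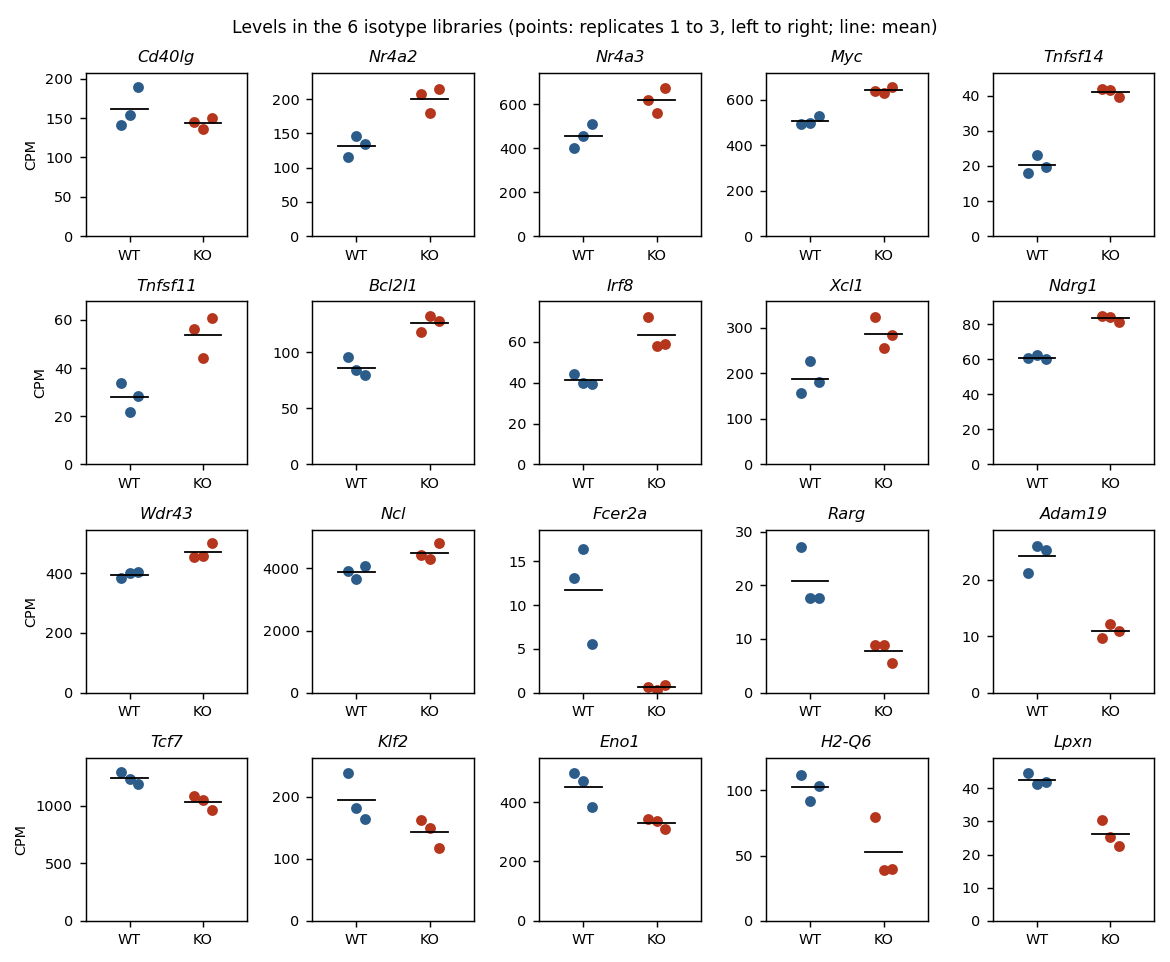
Level in CPM (y axis, from 0) of 20 genes in the 3 WT (blue) and 3 KO (red) isotype libraries; points are single libraries and the line is the group mean. The groups are separate in each panel except that of Cd40lg, where the highest KO library (150) lies above the lowest WT library (142).

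MYC and the machinery that builds ribosomes lay a little higher in all 3 KO libraries. Myc was at 637, 630 and 655 CPM in KO and 494, 497 and 530 in WT (log2 fold change 0.34, SE 0.09, edgeR quasi-likelihood adjusted p = 0.425). Of 54 ribosome biogenesis factors, 49 had a log2 fold change above 0, with a median of 0.14. All KO libraries lay above all WT libraries for 25 of them, 46.3% against 7.61% of all genes, and no member stood apart downward. The median deviation from the WT mean was 0.13, 0.12 and 0.13 in the KO libraries and -0.04, 0.01 and 0.04 in WT, so every KO library was above every WT library. Leaving out any isotype library kept the list's median between 0.11 and 0.15. The size was small: Brix1, the most shifted member, had a log2 fold change of 0.26, and no member passed the test.

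The members covered each stage of ribosome assembly. Ncl (nucleolin, which binds the growing ribosomal RNA) was at 4428, 4288 and 4806 CPM in KO and 3924, 3662 and 4072 in WT. Wdr43, a component of the small subunit processome, was at 453, 459 and 500 CPM in KO and 384, 400 and 404 in WT (log2 fold change 0.25, SE 0.08). Rrs1, required for the large subunit, was at 198, 180 and 177 CPM in KO and 140, 163 and 164 in WT (0.25, SE 0.09). Polr1a, the largest subunit of RNA polymerase I, was at 289, 288 and 290 CPM in KO and 269, 239 and 257 in WT (0.18, SE 0.08). Nat10, Gnl3, Nop58 and Ddx21 also stood apart upward, at 0.22, 0.23, 0.23 and 0.17. Among the 5 members below 0 were Nhp2 (-0.04) and Imp3 (-0.04).

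MYC binds the E-box CACGTG, and 10 of the 49 ribosome biogenesis genes with a promoter entry held it between 250 bases before and 50 after their start (20.4%). The motif was found in 10.6% of all 9006 promoters, in 12.4% of those of genes standing apart upward and in 7.85% of those standing apart downward. It was also in 4 of 25 promoters of the glycolysis list (16.0%), whose members lay lower in KO, and in 13.8% of those of splicing factors. These shares, like those of the other 3 motifs searched on both strands (TGANTCA, TGACGTCA for CREB factors and GGGCGG for Sp1, none of which contains another), are descriptions without a test, and they were computed for 9 sets of genes after values had been seen. The cyclic AMP motif TGACGTCA was in 3.25% of all promoters, in 3.71% of those standing apart upward and in 0.999% of those standing apart downward. Its shares were higher in 2 lists that leaned lower in KO, 9.52% of cytosolic ribosomal protein and 7.69% of oxidative phosphorylation promoters. The part of either motif in any shift was not tested. Among the E-box holders, Nop2, an rRNA methyltransferase, stood apart upward (337, 317 and 312 CPM in KO; 285, 299 and 290 in WT). Rrn3, an initiation factor of RNA polymerase I, holds the motif more than once and overlapped by the width of 1 library (141, 141 and 159 CPM in KO; 129, 136 and 141 in WT). The 250 bases before their RefSeq starts follow (GRCm38.p6), with each CACGTG in capitals, at 60 bases before the start of Nop2 and at 215 and 48 bases before that of Rrn3.
Nop2, chr6:125131633-125131882, strand plus: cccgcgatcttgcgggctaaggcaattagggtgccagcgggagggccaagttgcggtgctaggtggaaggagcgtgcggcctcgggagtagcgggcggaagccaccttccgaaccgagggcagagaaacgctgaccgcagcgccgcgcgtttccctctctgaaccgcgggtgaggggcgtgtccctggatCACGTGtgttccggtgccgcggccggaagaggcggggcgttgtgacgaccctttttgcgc
Rrn3, chr16:13780449-13780698, strand plus: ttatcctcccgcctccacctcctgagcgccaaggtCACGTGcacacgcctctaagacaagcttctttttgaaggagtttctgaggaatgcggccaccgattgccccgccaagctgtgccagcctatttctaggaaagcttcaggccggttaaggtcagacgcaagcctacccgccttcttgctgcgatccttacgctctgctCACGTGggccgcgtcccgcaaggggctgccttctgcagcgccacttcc

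Genes of RNA processing leaned the same way. Of 67 splicing factors and hnRNP proteins, 53 lay above 0, with a median log2 fold change of 0.06. Upward 19 stood apart (28.4%, against 7.61% of all genes) and downward 2 (2.99%, against 7.62%). The KO libraries had median deviations of 0.07, 0.07 and 0.11, above the -0.01, 0.01 and -0.00 of WT. Hnrnpll, a regulator of splicing during T cell activation, was at 118, 119 and 131 CPM in KO and 97.8, 104 and 111 in WT (0.24, SE 0.10). Srsf7 and Snrpd1 had log2 fold changes of 0.20 each. The small nucleolar RNA host genes, whose introns carry the guide RNAs of ribosomal RNA modification, had the highest median of the lists with at least 8 tested genes, 0.19. That median depended on KO replicate 3 and was 0.07 without it. Of 14 tested, 5 stood apart upward (35.7%, against 7.61% of all genes) and 0 downward. Snhg17 was at 57.2, 61.7 and 58.0 CPM in KO and 44.9, 46.2 and 50.7 in WT (0.32, SE 0.10). Of 19 genes of amino acid and one-carbon metabolism 15 lay above 0. Among these 19, 3 stood apart upward (15.8%, against 7.61% of all genes) and 2 downward (10.5%, against 7.62%). Slc7a1, a transporter of arginine and lysine, was at 406, 438 and 457 CPM in KO and 347, 331 and 372 in WT (0.31, SE 0.09). The other two apart upward were Slc7a5 (0.15) and Mthfd1 (0.13). The shifts of the downward pair were larger: Psph, an enzyme of serine synthesis, lay at -0.44 (SE 0.15) and Ddit4, an inhibitor of mTORC1, at -0.42 (SE 0.13).

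**Figure D4:**
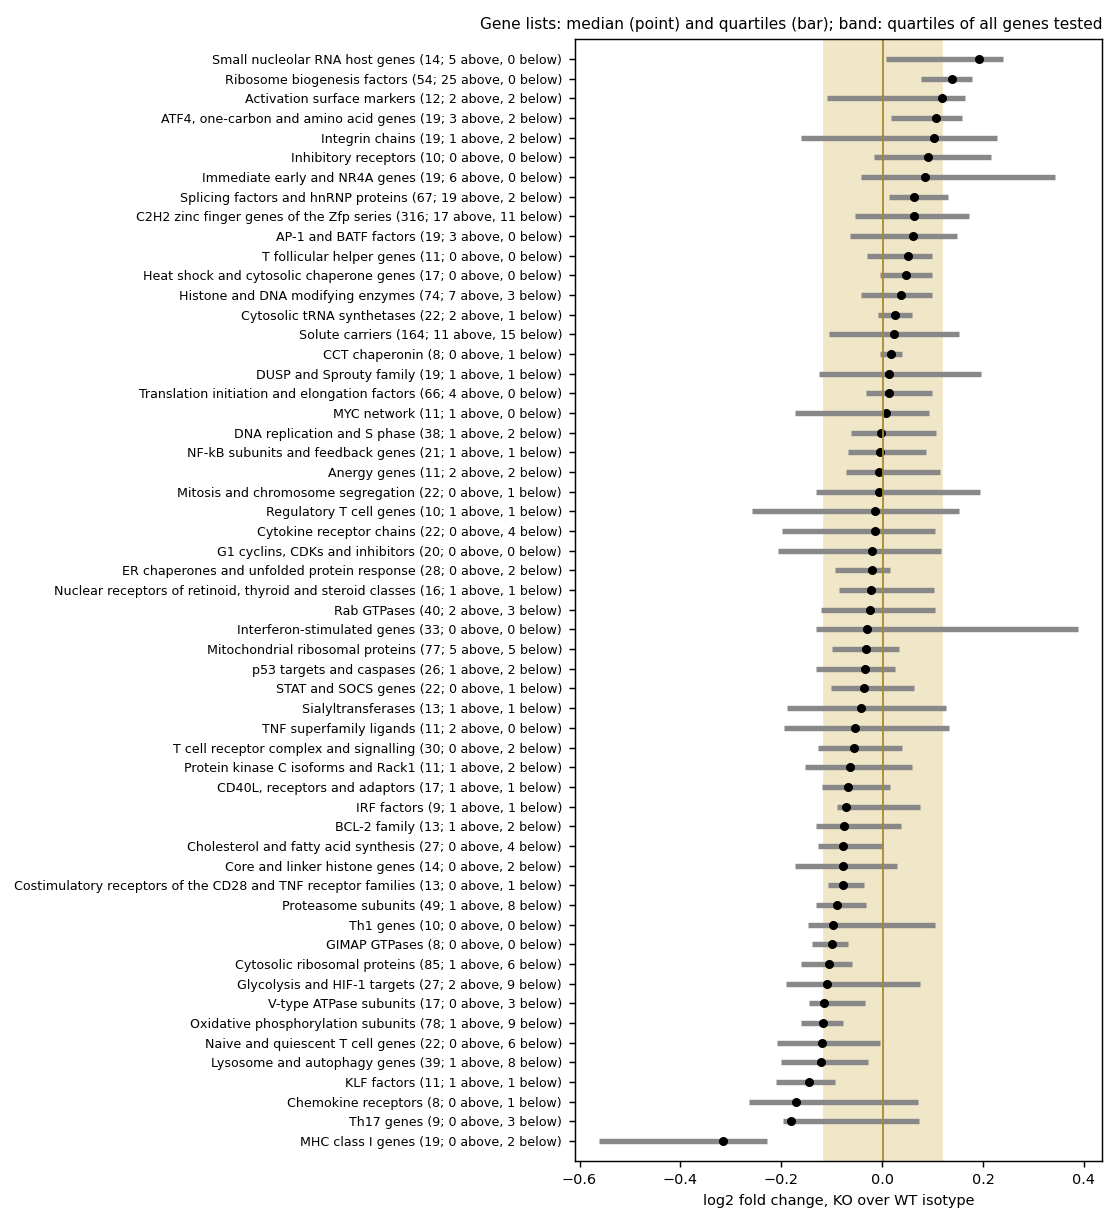
Median (point) and quartiles (bar) of the log2 fold change of KO over WT isotype (x axis) for gene lists with at least 8 tested genes; brackets give the genes tested and how many had all KO libraries above or below all WT libraries, and the band is the quartile range of all genes (-0.115 to 0.118). Ribosome biogenesis factors lie at 0.14 with 25 above, and MHC class I genes lie lowest at -0.32.

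Genes of resting T cells lay lower in KO, with 1 library of each group apart from the rest. Of 22 tested, 16 lay below 0 and 6 stood apart downward (27.3%, against 7.62% of all genes) and none upward, with a median of -0.12. By library the medians were 0.01, -0.18 and -0.21 in KO and 0.18, -0.10 and -0.06 in WT, so KO replicate 1 lay above 2 of the WT libraries. Tcf7, a transcription factor of naive and memory T cells, was at 1085, 1046 and 962 CPM in KO and 1294, 1230 and 1190 in WT (log2 fold change -0.26, SE 0.08). Klf2, which keeps T cells quiescent and recirculating, was at 163, 149 and 118 CPM in KO and 237, 182 and 164 in WT (-0.44, SE 0.15). Ccr7, the homing receptor for lymph nodes, was at 761, 764 and 743 CPM in KO and 1119, 816 and 824 in WT (-0.28, SE 0.12). Ets1 (-0.25), Foxo1 (-0.22) and Bcl2 stood apart downward as well. Il7r, the receptor for the survival cytokine IL-7, overlapped and lay at 0.19. For this list the median was -0.05 without WT replicate 1 and -0.20 without KO replicate 1.

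Enzymes of glycolysis lay a little lower in all 3 KO libraries. Of 27 glycolysis and HIF-1 target genes, with a median of -0.11, 9 stood apart downward (33.3%, against 7.62% of all genes). Upward 2 stood apart (7.41%, against 7.61%). The KO libraries lay at -0.07, -0.10 and -0.12, each below the lowest WT library at -0.06. Eno1 (enolase) was at 342, 337 and 311 CPM in KO and 500, 472 and 382 in WT (log2 fold change -0.45, SE 0.10). Tpi1 (triose phosphate isomerase) was at 80.7, 78.0 and 76.9 CPM in KO and 162, 121 and 97.9 in WT (-0.70, SE 0.18). The other 7 apart downward were Hk1, Gpi1, Pfkl, Pfkp, Pgam1, Pgk1 and Pkm, between -0.28 and -0.11. Slc2a1, the main glucose transporter, and Ldha, lactate dehydrogenase, overlapped at -0.11 and -0.09. The 2 apart upward were Slc2a3, another glucose transporter (0.27), and Ndrg1, a gene induced by low oxygen and by T cell anergy. Ndrg1 was at 84.9, 84.0 and 81.0 CPM in KO and 60.6, 62.1 and 60.1 in WT (0.45, SE 0.08, edgeR quasi-likelihood adjusted p = 0.195). Gapdh was counted at only 5.20 to 9.08 CPM, and the sources used here do not say how reads shared between near-identical gene copies were counted. In the cholesterol and fatty acid list 4 of 27 stood apart downward (14.8%, against 7.62% of all genes). They were Fdps, farnesyl diphosphate synthase (-0.42, SE 0.10), Nsdhl (-0.18), Mvd (-0.15) and Srebf1 (-0.13). That list's median of -0.08 was 0.01 without KO replicate 1.

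Beyond these lists, the strongest lower levels in KO were single genes of varied function. Rarg, the retinoic acid receptor gamma, was at 8.89, 8.78 and 5.54 CPM in KO and 27.1, 17.7 and 17.7 in WT (log2 fold change -1.44, SE 0.25, edgeR quasi-likelihood adjusted p = 0.195). Adam19, a membrane metalloprotease, was at 9.75, 12.2 and 10.9 CPM in KO and 21.2, 25.9 and 25.2 in WT (-1.14, SE 0.22). Lpxn, the adhesion adaptor leupaxin, was at 30.5, 25.4 and 22.5 CPM in KO and 44.5, 41.2 and 41.9 in WT (-0.71, SE 0.13). Zc3h12d, an RNase that limits cytokine messages, had narrow groups: 171, 170 and 184 CPM in KO and 231, 230 and 238 in WT (-0.41, SE 0.08). Nt5e, which encodes the adenosine-producing enzyme CD73, was at 22.7, 24.4 and 24.6 CPM in KO and 32.5, 65.7 and 56.0 in WT (-1.10, SE 0.26). Il2rb, the beta chain of the IL-2 receptor, was at 110, 102 and 97.3 CPM in KO and 128, 169 and 136 in WT (-0.49, SE 0.12). Of 22 tested cytokine receptor chains 4 stood apart downward (18.2%, against 7.62% of all genes) and none upward: Il2rb, Il6ra, Il6st and Tgfbr2. Plaat3, a phospholipase, and Dse, an enzyme of dermatan sulfate synthesis, lay at -0.95 (SE 0.18) and -0.70 (SE 0.15). Anxa7, an annexin, was at 124, 111 and 116 CPM in KO and 161, 156 and 141 in WT (-0.39, SE 0.08). Ctsw, a cathepsin of cytotoxic lymphocytes, was low in all libraries, at 8.56, 6.22 and 7.95 CPM in KO and 12.9, 25.1 and 18.8 in WT (-1.32, SE 0.38). Endod1 (-1.19, SE 0.33) and Farp1 (-1.21, SE 0.26) also stood apart downward below 15 CPM. Lars2, the mitochondrial leucyl-tRNA synthetase, was at 509, 560 and 647 CPM in KO and 747, 954 and 1246 in WT (-0.78, SE 0.17). A transcript without a gene symbol took 1.21, 1.14 and 1.15% of counts in KO and 1.18, 2.64 and 2.37% in WT, and its part in the level of Lars2 was not tested.

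The wild-type cells on anti-CD40L share their WT isotype controls with the KO comparison, so levels are only set side by side. Tnfsf14, at 39.6 to 41.7 CPM in KO and 18.1 to 23.2 in WT isotype, was at 13.5, 14.2 and 24.8 CPM on anti-CD40L. Nr4a2, at 180 CPM or more in KO, was at 70.5, 83.7 and 69.0 CPM there, below every WT isotype library. Rarg was at 12.8, 14.2 and 8.41 CPM, below every WT isotype library as it was in KO. Adam19 was at 20.6, 33.0 and 17.2 CPM and Cd40lg at 109, 132 and 163 CPM, both overlapping WT isotype. Myc, ribosome biogenesis factors and MHC class I genes also lay on the same side of WT isotype as in KO. Myc was at 673, 593 and 738 CPM on anti-CD40L. Median deviations from the WT isotype mean were 0.195, 0.124 and 0.199 for ribosome biogenesis factors and -0.58, -0.49 and -0.45 for MHC class I genes. Glycolysis genes (0.22, 0.10 and 0.29) and immediate early and NR4A genes (-0.44, -0.21 and -0.15) lay on the opposite side. Which shifts are particular to KO was not tested.

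The largest difference of all was in a B cell gene. Fcer2a encodes CD23, a low-affinity receptor for IgE that CD40 signals induce on B cells. It had 6, 4 and 13 counts (0.65, 0.29 and 0.83 CPM) in KO and 146, 173 and 48 counts (13.1, 16.4 and 5.51 CPM) in WT. Every WT library lay well above every KO library, with a log2 fold change of -4.28 (SE 0.61, fold 19.4, edgeR quasi-likelihood adjusted p = 0.109). In the anti-CD40L libraries, which the test of KO against WT does not compare, it had 0.45, 1.52 and 0 CPM. Of 12 B cell markers tested, 2 stood apart downward (16.7%, against 7.62% of all genes), Fcer2a among them, and 0 upward. Taken as a list, the markers followed single libraries. The list's medians were 0.86, -0.41 and -0.23 in KO and 0.10, 0.46 and -0.56 in WT, and its median log2 fold change of 0.03 turned to -0.54 without KO replicate 1 and was 0.37 without KO replicate 3. Its summed counts were 563, 273 and 377 in KO and 531, 693 and 239 in WT. Ms4a1, the gene of CD20, was at 1.84, 0.37 and 1.21 CPM in KO and 2.15, 4.18 and 0.46 in WT (-1.05, SE 0.79), with overlapping groups. Pax5, a B cell transcription factor, was at 2.60, 2.56 and 2.93 CPM in KO and 4.12, 5.80 and 2.06 in WT. Cd79a, a part of the B cell receptor, was at 4.99, 1.68 and 1.91 CPM in KO and 2.15, 2.38 and 1.49 in WT, and Cd74, H2-Aa and H2-Ab1 were likewise highest in KO replicate 1. All these genes sat far below the T cell genes Cd3e (366 to 437 CPM) and Cd4 (412 to 495 CPM). In bulk RNA fewer cells of a type and less RNA per cell cannot be told apart, and the part of B cells in other results was not tested.

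Markers of other cells ranged from near 0 to the level of moderately expressed genes. The natural killer genes Ncr1, Klrb1c, Klra8 and Klre1 had at most 3 counts in any isotype library, and the myeloid gene Csf1r likewise. The summed natural killer list was at 14.2, 9.22 and 12.5 CPM in KO and 27.4, 8.93 and 9.29 in WT. Its 1 tested member, Eomes, a transcription factor also found in T cells, was at 11.5, 8.42 and 10.8 CPM in KO and 26.9, 8.17 and 8.83 in WT (log2 fold change -0.53, turning to 0.26 without WT replicate 1). The myeloid and neutrophil list summed to 57.3 to 104 CPM in KO and 80.5 to 92.1 in WT, mostly from Ctss (cathepsin S). Its 3 tested members, Ctss, Cd68 and Itgam, lay below 0 with overlapping groups and a median of -0.29, which was between -0.50 and -0.15 under the alternatives run. The stromal and endothelial list summed to 61.5 to 94.4 CPM in KO and 74.3 to 109 in WT, mostly from Pecam1, while Cdh5 and Kdr had at most 8 and 2 counts. Col1a1, a collagen of fibroblasts, stood apart upward at 12, 10 and 24 counts in KO and 6, 6 and 5 in WT. The part of these cells in other results was not tested. The neutrophil genes S100a8 and S100a9 had 25 and 43 counts in KO replicate 1 and 0 in the other 5 libraries. Of 9 T cell markers tested, 1 stood apart downward (11.1%, against 7.62% of all genes). It was the receptor chain gene Cd247, at 236, 184 and 161 CPM in KO and 250, 247 and 250 in WT (log2 fold change -0.37, SE 0.13).

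In other lists the 3 KO libraries did not move together. MHC class I genes, which present peptides to CD8 T cells, had the lowest median of the lists with at least 8 tested genes, -0.32, with 17 of 19 below 0. Unadjusted p-values under 0.05 by the edgeR quasi-likelihood test were found for 9 of the 19, against 5.77% of all genes. By library the medians were 0.04, -0.41 and -0.62 in KO and 0.04, -0.00 and -0.02 in WT: KO replicate 1 lay among the WT libraries and the other 2 far below. H2-K1 showed this pattern, at 1595, 1178 and 1000 CPM in KO and 1564, 1570 and 1506 in WT, as did B2m, the shared light chain, at 1379, 897 and 967 against 1289, 1342 and 1258. Only H2-Q6 and H2-Q8 stood apart. H2-Q6 was at 79.9, 39.2 and 39.6 CPM in KO and 112, 91.9 and 104 in WT (log2 fold change -0.97, SE 0.21). These Qa region genes are near-identical copies, so their separate counts are uncertain. Without KO replicate 1, H2-Q6 (-1.38) and H2-Q8 (-1.44) passed the edgeR quasi-likelihood test, with adjusted p-values of 0.000434 and 0.00691, and the list's median was -0.51. Without KO replicate 3 that median was -0.16, and it stayed below 0 under every alternative run.

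Interferon-stimulated genes also set KO replicate 1 apart from the other KO libraries. Their median deviation was 0.55 in KO replicate 1, -0.22 and -0.36 in the other KO libraries and 0.09, -0.24 and 0.15 in WT. None of the 33 tested stood apart in either direction, and the median log2 fold change turned from -0.03 to 0.21 without KO replicate 3 and to -0.34 without KO replicate 1. MHC class II genes lay at 0.85, -0.19 and -0.25 in KO and at -0.19, 0.37 and -0.23 in WT. That list's median was 0.15 and turned to -0.54 without KO replicate 1.

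Cytosolic ribosomal proteins and oxidative phosphorylation subunits leaned lower in KO through 2 of its libraries. Of 85 cytosolic ribosomal proteins 76 lay below 0, with a median of -0.11, and of 78 oxidative phosphorylation subunits 71, with a median of -0.12. Downward, 6 ribosomal proteins stood apart (7.06%, below the 7.62% of all genes) and 9 oxidative phosphorylation subunits (11.5%, above it). The ribosomal proteins lay at 0.09, -0.12 and -0.30 in KO and -0.04, 0.11 and -0.08 in WT, so that KO replicate 1 was above 2 of the WT libraries. The oxidative phosphorylation subunits lay at -0.00, -0.12 and -0.26 in KO and -0.03, 0.14 and -0.11 in WT. Median transcript lengths were 819 and 850 bases, against 2882 over all genes, and the libraries ranked much as they did for all transcripts under 1000 bases. The small nucleolar RNA host genes, with a median length of 606 bases, leaned higher in KO. The part of length in these shifts was not tested. The ribosomal protein median was -0.03 without KO replicate 3, and the oxidative phosphorylation median -0.04 without WT replicate 2. Without KO replicate 1 the medians were -0.21 and -0.18, and 53 and 31 members then stood apart downward. Rps27a, which encodes a ribosomal protein fused to ubiquitin, was the ribosomal protein gene that stood apart upward, at 853, 1096 and 952 CPM in KO and 677, 754 and 681 in WT (log2 fold change 0.46, SE 0.10). Ribosome biogenesis factors had a median length of 2664 bases, and the part of length in their shift was not tested either.

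Proteasome and lysosome genes also lay lowest in KO replicate 3, but a larger share of their members stood apart downward. Proteasome subunits (41 of 49 below 0, median -0.09) had library medians of 0.02, -0.09 and -0.16 in KO and -0.03, 0.03 and -0.01 in WT, and 8 (16.3%) stood apart downward. Lysosome and autophagy genes (30 of 39 below 0, median -0.12) lay at -0.01, -0.12 and -0.22 in KO and -0.03, 0.06 and -0.04 in WT. Of these 8 (20.5%) stood apart downward, against 7.62% of all genes, and 1 upward, and the list's median stayed between -0.14 and -0.07 under the alternatives run. Npc2, a cholesterol carrier of the lysosome, stood apart at 181, 175 and 151 CPM in KO and 241, 204 and 208 in WT (-0.36, SE 0.10), as did Ctsd, the protease cathepsin D (-0.27). The 316 zinc finger genes of the Zfp series leaned the other way, 199 above 0 with a median of 0.06, but 5.38% stood apart upward and 3.48% downward, below the 7.61% and 7.62% of all genes. Their deviation was 0.16 in KO replicate 3, and without it the median was -0.04.

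**Figure D5:**
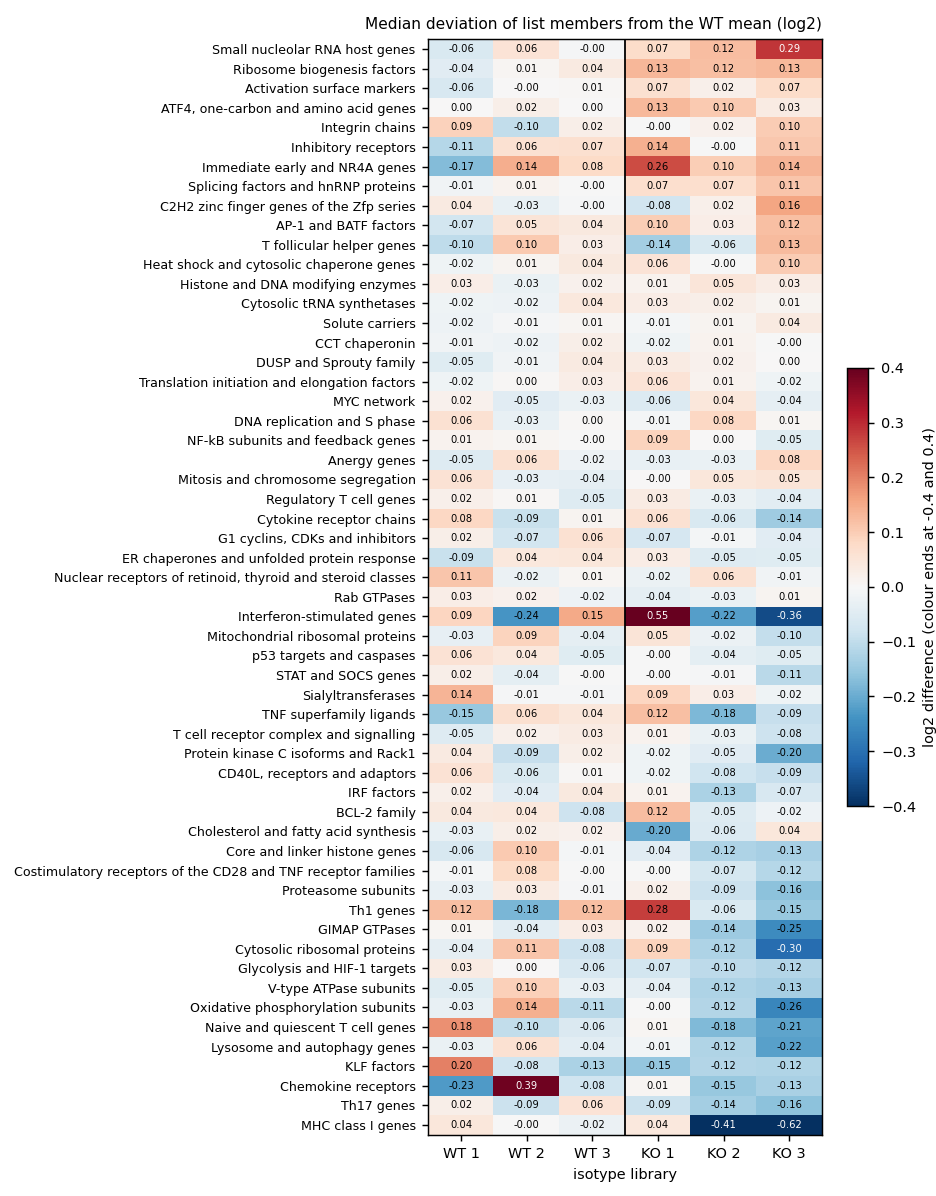
Median deviation of the members of each list from the WT mean in each isotype library (log2 of CPM + 1; colour and printed value; columns are WT 1 to 3 and KO 1 to 3, rows the lists in order of their median log2 fold change). Ribosome biogenesis factors read 0.13, 0.12 and 0.13 across KO, while MHC class I genes read 0.04, -0.41 and -0.62 and interferon-stimulated genes 0.55, -0.22 and -0.36.

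Genes of the Th1, Th2 and T follicular helper lists gave no clear shift, while the Th17 list had a lower median in KO with overlapping libraries. No member of the Th1, Th2 or T follicular helper lists stood apart, of 10, 7 and 11 tested, with medians of -0.10, 0.07 and 0.05. Each median turned sign with 1 library left out: Th1 to 0.04 without WT replicate 3, Th2 to -0.02 without KO replicate 2 and T follicular helper to -0.02 without WT replicate 1. In the Th17 list 3 of 9 stood apart downward (33.3%, against 7.62% of all genes) and 0 upward. Its median was -0.181 and stayed between -0.198 and -0.055 under the alternatives run. By library the medians were -0.085, -0.135 and -0.164 in KO and 0.022, -0.086 and 0.055 in WT, so KO replicate 1 lay level with WT replicate 2. The members apart were Il6ra and Il6st, the chains of the IL-6 receptor, at -0.29 (SE 0.12) and -0.20 (SE 0.09), and Tgfbr2, a TGF-beta receptor chain, at -0.20. These 3 genes are also counted among the cytokine receptor chains above, so those counts are not separate observations. The lineage regulator Gata3 was at 17.3, 16.7 and 20.4 CPM in KO and 19.8, 15.4 and 13.4 in WT, and Foxp3 at 15.6, 15.7 and 17.4 against 18.5, 19.6 and 16.2. Tbx21, Ifng and Il4 were below the level for testing, at no more than 1.73, 0.46 and 0.23 CPM in any isotype library. Genes of DNA replication (38 tested, median -0.00) and of mitosis (22 tested, median -0.01) did not separate the groups. Of the replication genes 1 stood apart upward (2.63%) and 2 downward (5.26%), and of the mitosis genes 0 and 1 (4.55%). These shares lay below the 7.61% and 7.62% of all genes.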

How the data were processed

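Expected counts per transcript for 9 libraries were deposited by the authors, in values that are multiples of 0.5. Reads were handled with CASAVA 1.8.2 and HISAT2 2.1.0 against mm10, per the submitters' processing notes. Not given in the sources used here are the counter, its strand setting and its handling of multiply aligned reads. The planned design had assumed whole counts, so these values were rounded to whole numbers before the count tests. Of 42361 transcripts, 42203 took a symbol from RefSeq GRCm38.p6 and 65 from GENCODE vM21; 93 had none. The transcript with the highest total stood for each of 25160 genes.

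All 9 libraries were fitted with edgeR 4.0.16 (R 4.3.3; TMM, its filter on low counts, robust quasi-likelihood test, Benjamini-Hochberg threshold 0.05), which tested 11256 genes. The scripts were tested on simulated data. Alternatives were DESeq2 1.42.0, limma 3.58.1, other scaling, no filter, fewer libraries and a replicate block. Deviations of lists are on log2(CPM + 1). Depth and the number of libraries limit precision, as given beside the intervals.

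Members and gene lists were chosen with earlier results of these data known. Named genes were a set of subject genes, the 10 per direction of smallest p and 5 of largest change among genes that stood apart, for each list up to 2 such members a direction, and genes within 1 Mb of Cd40lg. Further genes outside that rule, the length classes, the motifs and the printed promoters were chosen after values had been seen. The MHC class I list was corrected after the files were read because it had caught class II genes, and Miz1 in the MYC network list was read as Zbtb17. Values of 2 genes of these lists are not reported here.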

Additional observations from a re-analysis of the deposited data

How the results depend on the processing

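The count of called genes was 0 with RLE size factors, limma-voom and the replicate block, 39 with DESeq2 (15 higher, 24 lower), 32 with limma-voom and sample quality weights, and 102 without the filter on low counts, where 19646 genes were tested. It was 3 with only the 6 isotype libraries and 2 without WT anti-CD40L replicate 3 (Tnfsf14 and Fcer2a). Leaving out single isotype libraries gave 0 to 2. The share of genes that stood apart was 11.2% without the filter and 22.2 to 31.4% with a library left out, where fewer libraries make separation easier. Whether replicate numbers pair the libraries could not be settled, since deviations from means of 3 libraries depend on each other. Same-numbered deviations correlated at -0.109, 0.046 and 0.163. KO replicate 3 correlated best with its own number, and KO replicates 1 and 2 with another. The replicate block called 0 genes, as did the main fit. With only the 6 isotype libraries and the replicate block, an alternative chosen after seeing the data, 6 were called, against 3 without the block. Cd40lg stayed below 0 in all 15 alternatives (-0.25 to -0.04). Of the log2 fold changes of named genes, 20 values turned sign, all of genes whose groups overlapped. Over the left-out isotype libraries, with the one that turned the sign, the ranges were Itga5 -0.146 to 0.0, Tnf -0.055 to 0.279, Egr2 -0.068 to 0.323, Eomes -0.819 to 0.265 and Jun -0.139 to 0.151 (WT replicate 1), Traf3 -0.084 to 0.032, Nhp2 -0.097 to 0.017 and Il7r -0.011 to 0.315 (WT replicate 2), and Arhgef6 -0.092 to 0.017 (WT replicate 3). More than 1 library turned Traf6 (-0.054 to 0.05; -0.017 without KO replicate 2 and -0.001 without KO replicate 3), Tnfsf8 (-0.073 to 0.079; -0.014 without KO replicate 3), Junb (-0.167 to 0.034; 0.024 without KO replicate 3) and Imp3 (-0.117 to 0.059; 0.02 without KO replicate 3). With limma-voom and quality weights Traf3 was 0.006 and Tnfsf8 -0.03. The causes were not tested. Flags for outlying samples need at least 4 samples a group, so none was made.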
